A study of Mus musculus with 6 samples.

Results

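Neurexins, neuroligins and teneurins are cell adhesion proteins of synapses, and 9 of their genes are described here: Nrxn2, Nrxn3, Nlgn1, Nlgn2, Nlgn3, Tenm1, Tenm2, Tenm3 and Tenm4. They were chosen by gene symbol from a table of 24972 genes. All 9 were among the 15800 genes that passed a filter on low values, at least 10 normalized counts in at least 3 libraries. The study sequenced RNA of mouse cortex at P7 to ask which transcripts differ when Zmiz1, a transcriptional coregulator, is deleted. Mice with floxed Zmiz1 alleles and no Cre (Zmiz1f/f) served as wildtype, and Zmiz1f/f;Emx1Cre mice as Zmiz1-KO, with 3 libraries in each group. The labels give the RNA as that of cortex, but a protocol field also speaks of isolating progenitor cells, and the values hold markers of many mature cell types. Emx1 drives Cre in the progenitors of cortical excitatory neurons and astrocytes, so interneurons, microglia and vessels of the same dissection carry undeleted alleles. The sources used here do not say whether a library came from 1 animal, so p values measure the spread between these libraries only.

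Neurexins sit in the presynaptic membrane and bind neuroligins across the synaptic cleft. Among neuroligins, the product of Nlgn1 is found mainly at excitatory synapses, that of Nlgn2 at inhibitory synapses and that of Nlgn3 at both. Teneurins are large transmembrane proteins that bind each other and the latrophilin receptors, and they guide the matching of axons with their targets.

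The label of the deletion was checked first. Zmiz1 had 8119, 7929 and 7461 normalized counts in replicates 1, 2 and 3 of wildtype, against 9944, 9779 and 9660.2 in those labelled Zmiz1-KO, which is 0.32 on the log2 scale (limma adjusted p = 0.00125). The gene was higher under the label of its own deletion, in 3 of 3 libraries. The groups are therefore called by their label, and each direction below is that of the libraries labelled Zmiz1-KO against wildtype. By qPCR, the study reports Zmiz1 as downregulated in its Zmiz1-KO samples. The sources used here do not say whether those samples also gave these libraries. The table has no value per exon, so transcripts that lack the floxed part were not told apart from whole ones. A rough depth, taken as a library's summed values over its most common low value, lay between 15494889 and 17858391 per library. High values were not whole multiples of that low value, so these figures are not recovered read counts.

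At an adjusted p of 0.05 (limma), the threshold for calling a gene, 0 of the 9 genes were called, against 65 of 15800 tested genes (0.411%), 39 of which were lower (0.247%) and 26 higher (0.165%). By limma-voom the count was likewise 0 of 9. At an unadjusted limma p under 0.05 it was 4 of 9, all 4 lower in the libraries labelled Zmiz1-KO (Nlgn1, Nlgn3, Tenm1 and Tenm3), where 5.84% of all tested genes were lower at that p. By limma-voom the count at that p was 4 as well. In Nlgn1, Tenm1 and Tenm3, 3 of the 9 genes, every value labelled Zmiz1-KO lay below every wildtype value, as it did in 8.16% of all tested genes. The log2 fold change was negative in 6 of the 9 genes and in 50.1% of all tested genes, and the median was -0.10 over the 9. With so few genes chosen by family, these shares describe the members and were not tested.

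**Figure D1:**
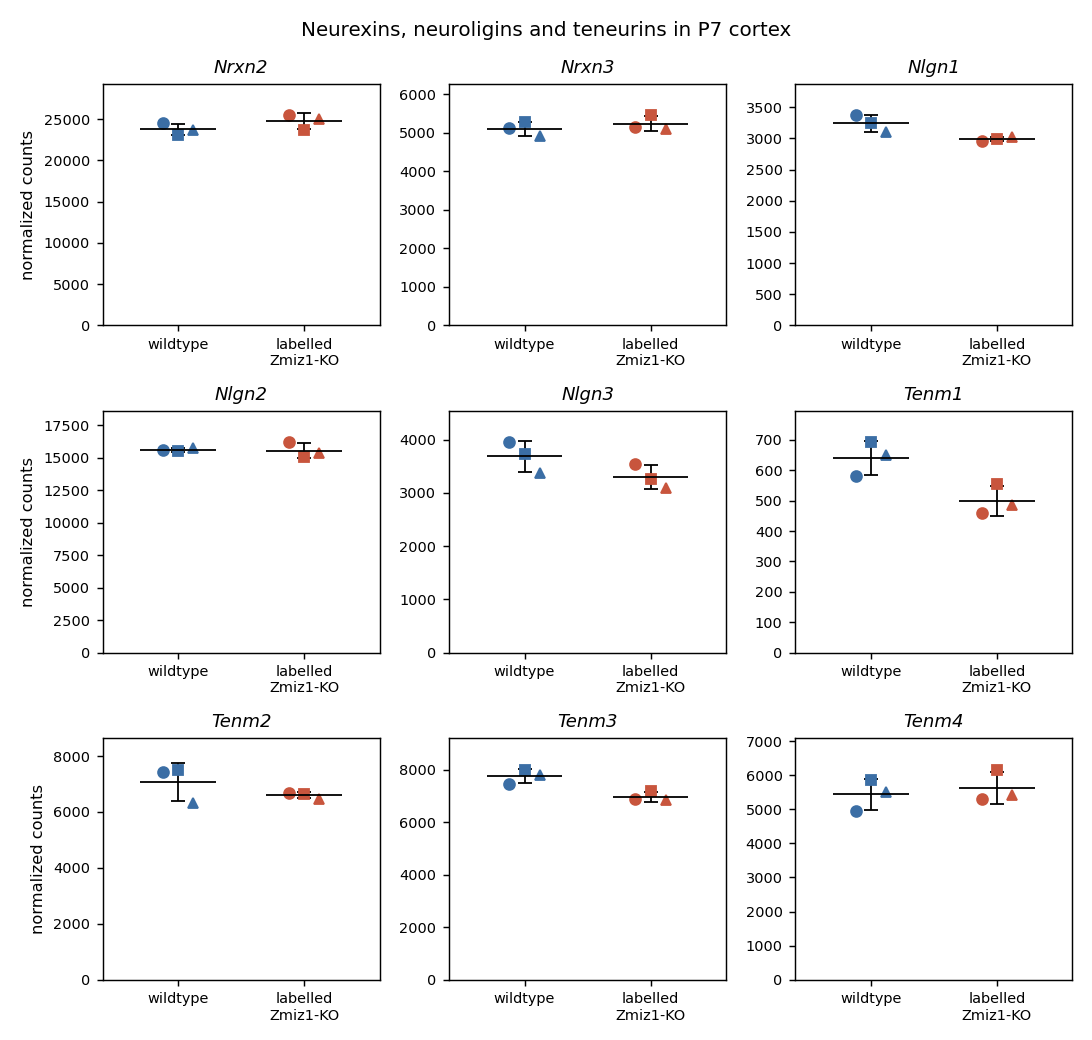
Normalized counts of the 9 genes in each library, on axes that start at 0. Circles, squares and triangles stand for replicates 1, 2 and 3, blue for wildtype and red for the libraries labelled Zmiz1-KO, and black bars for the mean and SD of 3 libraries. The groups are apart in Nlgn1, Tenm1 and Tenm3 and overlap in the other 6 genes.

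In both neurexin genes the values of the groups overlapped. Nrxn2, which spans 125.4 kb of chromosome 19 (GRCm38, 6418731 to 6544169), had 24469, 23094 and 23662 normalized counts in replicates 1, 2 and 3 of wildtype, against 25476, 23626 and 25046 in those labelled Zmiz1-KO. Replicate 2 labelled Zmiz1-KO lay within the wildtype range and the other 2 above it. The means were 23742 ± 691 (SD, n = 3) and 24716 ± 968 (SD, n = 3). Their difference on the log2 scale was 0.06 (95% interval -0.02 to 0.14, limma adjusted p = 0.621). It was 0.04 without wildtype replicate 2 or replicate 1 labelled Zmiz1-KO, and 0.09 without replicate 2 labelled Zmiz1-KO.

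Nrxn3, the longest of the 9 genes at 1612.1 kb (chromosome 12, 88722876 to 90334935), had 5132, 5279.5 and 4921 normalized counts in wildtype against 5156, 5461 and 5109 under the label Zmiz1-KO, in the order of replicates 1, 2 and 3. The groups overlapped, and in each of them replicate 2 was highest. A log2 fold change of 0.04 had a 95% interval of -0.06 to 0.13 (limma adjusted p = 0.827). Leaving out 1 library moved it to 0.0066 (replicate 2 labelled Zmiz1-KO), 0.0095 (wildtype replicate 3) or 0.06 (wildtype replicate 2). The table gives 1 value for each neurexin gene, which sums its long and short forms and all splice variants.

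Among the postsynaptic ligands, Nlgn1 and Nlgn3 had lower means in the libraries labelled Zmiz1-KO and Nlgn2 had nearly equal means. Nlgn1 (chromosome 3, 25426215 to 26332460) had 3373, 3250.3 and 3107 normalized counts in replicates 1, 2 and 3 of wildtype, against 2954, 2986 and 3021 in those labelled Zmiz1-KO. The lowest wildtype library and the highest of the others were 3107 and 3021, so the groups were apart by a small gap. The means were 3243 ± 133 (SD, n = 3) and 2987 ± 33.7 (SD, n = 3). This gave a log2 fold change of -0.12 (standard error 0.045, 95% interval -0.21 to -0.02, limma adjusted p = 0.331). The exact permutation p was 0.1, the smallest that 3 libraries against 3 can give.

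Nlgn2, whose product organizes inhibitory synapses, had 15577, 15511 and 15796 normalized counts in wildtype against 16195, 15104 and 15354 under the label Zmiz1-KO. Replicate 1 labelled Zmiz1-KO lay above all wildtype values and the other 2 below them. The means were 15628 ± 149 (SD, n = 3) and 15551 ± 572 (SD, n = 3), and the log2 fold change was -0.01 (95% interval -0.09 to 0.07, limma adjusted p = 0.966). Its sign turned without replicate 2 or without replicate 3 labelled Zmiz1-KO, to 0.013 and 0.0011. Markers of GABAergic interneurons, the source of most inhibitory synapses, had higher sums in the same libraries. All 8 of them had a positive log2 fold change, where 50.1% of all tested genes had a negative one. None of the 8 was called by limma or limma-voom. At an unadjusted limma p under 0.05, 5 of them were higher, beside 5.13% of all tested genes. Gad1 and Slc32a1 were called without wildtype replicate 2, and Sst without replicate 2 labelled Zmiz1-KO, under upper-quartile scaling and at an adjusted p of 0.1. The study, which tested by DESeq2, names Gad1, Gad2, Slc32a1 and Sst among its differentially expressed synaptic genes, from these same libraries. The 8 markers' summed normalized counts were 18007, 22384 and 20066 in wildtype against 23393, 25167 and 23826 under the label Zmiz1-KO, with Gad1 the most abundant and no marker at 0. Sums of the 6 striatal markers, given below, were above wildtype in the same libraries as well. The part of striatal tissue in the GABAergic sums was not tested, nor was the part of either in the values of Nlgn2.

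Nlgn3 is X-linked, on chromosome X (101299168 to 101325963). It had 3948, 3729 and 3374 normalized counts in wildtype against 3533, 3256 and 3086 under the label Zmiz1-KO. Wildtype replicate 3 was below replicate 1 labelled Zmiz1-KO, so the groups overlapped. Its log2 fold change was -0.16 (standard error 0.062, 95% interval -0.30 to -0.03, limma adjusted p = 0.353). Of its merged exon bases, 41.2% are shared with Gm21986, a noncoding transcript on the same strand, and 39.9% of the 75-base stretches of its transcripts also occur there. How the counting treated reads from that stretch is not given in the sources used here, so the value of Nlgn3 is less certain than those of Nlgn1 and Nlgn2.

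Per kilobase of merged exons, Nlgn2 made up most of the summed level of the 3 neuroligin genes in each library. Its share was 79.9, 80.6 and 82.1% in wildtype against 82.3, 82.0 and 82.6% under the label Zmiz1-KO. Nlgn3 held 10.4 to 12.6% and Nlgn1 6.47 to 7.46%. The ratio of Nlgn2 to Nlgn1 on this scale was 10.7, 11.1 and 11.8 in wildtype against 12.7, 11.7 and 11.8 under the label Zmiz1-KO. Its means of 11.2 ± 0.551 (SD, n = 3) and 12.1 ± 0.553 (SD, n = 3) overlapped within their spread.

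Among the teneurin genes, Tenm1 and Tenm3 lay below wildtype in every library labelled Zmiz1-KO, and the groups overlapped in Tenm2 and Tenm4. Differences between these genes were not tested. Tenm1 (chromosome X, 42527866 to 43429126) had 581, 692 and 651 normalized counts in wildtype against 459, 553 and 486 under the label Zmiz1-KO. Replicate 2 was the highest of each group, and the closest values across the groups were 581 and 553. The means were 641 ± 56.3 (SD, n = 3) and 499.6 ± 48.6 (SD, n = 3). Its log2 fold change of -0.36 had the largest size among the 9 genes under the fit used here (standard error 0.091, 95% interval -0.55 to -0.17, limma adjusted p = 0.123; exact permutation p = 0.1). Without replicate 2 labelled Zmiz1-KO, Tenm1 passed the threshold with -0.44 as log2 fold change (adjusted p = 0.0347, limma). That fit called 152 of all tested genes, against 65 with every library. The library left out was also the only female-pattern library of its group, as given below. Over all alternatives the adjusted p of Tenm1 ran from 0.0347 to 0.447. An antisense overlap with Sh2d1a covers 8.25% of its exon bases.

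Nlgn3 and Tenm1 lie on the X chromosome, and the libraries differed in sex. Xist stood at 25307 normalized counts in wildtype replicate 3, at 24403 for replicate 2 labelled Zmiz1-KO and at most 57.3 in the other 4 libraries. Ddx3y, from the Y chromosome, was at 0 and 1.89 in those 2 libraries and at 1250.2 to 1483 in the others, so each group held 1 library with the female pattern. Among male-pattern libraries alone, Tenm1 had 581 and 692 normalized counts in wildtype against 459 and 486 in those labelled Zmiz1-KO. In the libraries with the female pattern it had 651 against 553. For Nlgn3 these values were 3948 and 3729 against 3533 and 3086, and 3374 against 3256. Both genes were thus lower under the label Zmiz1-KO within each pattern. With log2 Xist as a covariate, the difference between the groups was -0.35 for Tenm1 (limma adjusted p = 0.121) and -0.17 for Nlgn3 (limma adjusted p = 0.256), and neither was called.

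Tenm3, which guides retinal and hippocampal wiring, is named by the study among its differentially expressed synaptic genes at P7, from these same libraries, as is Ptprd. It lies on chromosome 8 (48227682 to 48843951) and had 7469, 8017 and 7821 normalized counts in wildtype against 6876, 7192 and 6874 under the label Zmiz1-KO. Its highest value labelled Zmiz1-KO was that of replicate 2, and its lowest wildtype value that of replicate 1. The means were 7769 ± 278 (SD, n = 3) and 6980.4 ± 183 (SD, n = 3). On the log2 scale the difference was -0.15 (standard error 0.041, 95% interval -0.24 to -0.07; exact permutation p = 0.1). Its adjusted p over the 15800 genes was 0.145 (limma), so Tenm3 was not called by the test used here. The study's list came from DESeq2, a different test that was not run here.

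Tenm2 (chromosome 11, 36006656 to 37235964) had 7411, 7518 and 6308 normalized counts in wildtype against 6672, 6654 and 6473 under the label Zmiz1-KO. Wildtype replicate 3 stood apart as the lowest of the 6 libraries, below the 3 labelled Zmiz1-KO. The wildtype SD of 670.0 around 7079 was therefore wide against 110.1 around 6599 in the other group. A log2 fold change of -0.10 resulted (95% interval -0.23 to 0.03, limma adjusted p = 0.595). Leaving out 1 library gave values from -0.18, without wildtype replicate 3, to -0.05, without wildtype replicate 2, and -0.06 without wildtype replicate 1. Tenm2 was called in none of these fits (limma adjusted p from 0.135 to 0.868 over all alternatives).

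Tenm4 (chromosome 7, 96171246 to 96911093) had 4954, 5867 and 5509 normalized counts in wildtype against 5295, 6167 and 5429.9 under the label Zmiz1-KO. The groups overlapped, with replicate 2 highest in each. For Tenm4 the log2 fold change of 0.05 had a 95% interval of -0.12 to 0.22 (limma adjusted p = 0.873), and its sign turned to -0.02 without wildtype replicate 1 and without replicate 2 labelled Zmiz1-KO.

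Per kilobase of merged exons, Tenm3 and Tenm2 together made up most of the summed level of the 4 teneurin genes. Tenm3 held 44.4, 44.6 and 47.4% in wildtype against 43.9, 43.7 and 44.1% under the label Zmiz1-KO, and Tenm2 held 34.1 to 39.3% over all libraries. The share of Tenm4 was 14.3, 15.9 and 16.3% in wildtype against 16.5, 18.3 and 17.0% under the label Zmiz1-KO, so the groups were apart. Tenm1 held 1.99, 2.22 and 2.28% in wildtype against 1.69, 1.94 and 1.80% under the label Zmiz1-KO, also apart. A share rises when the other genes of the sum are lower, so these shares repeat the values above on another scale.

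Set side by side per kilobase of merged exons, the level of Nlgn2 led the 9 genes, with a mean over the 6 libraries of 2695 ± 65.0 (SD, n = 6) normalized counts per kb. Nrxn2 followed at 1754, Tenm3 at 720.4 and Tenm2 at 596, and the ranges of these 4 over libraries did not touch. Nrxn3 (411) and Nlgn3 (376) had overlapping ranges per kb, as did Tenm4 (263) and Nlgn1 (232). Tenm1 was lowest on this scale at 32.1 normalized counts per kb, with a range of 25.9 to 39.0. Per kilobase of the longest transcript instead, Nrxn2 came before Nlgn2, at 3634 against 2800, because the merged exons of Nrxn2 hold 13812 bases and its longest transcript 6667. Tenm4 likewise came before Nlgn3 on that scale, with overlapping ranges. The order of Nrxn2 and Nlgn2 therefore depends on the length used. Since high values were not whole multiples of a library's step, the authors' normalization may hold a factor per gene, and these orders and the shares within families are given as if it held none.

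**Figure D2:**
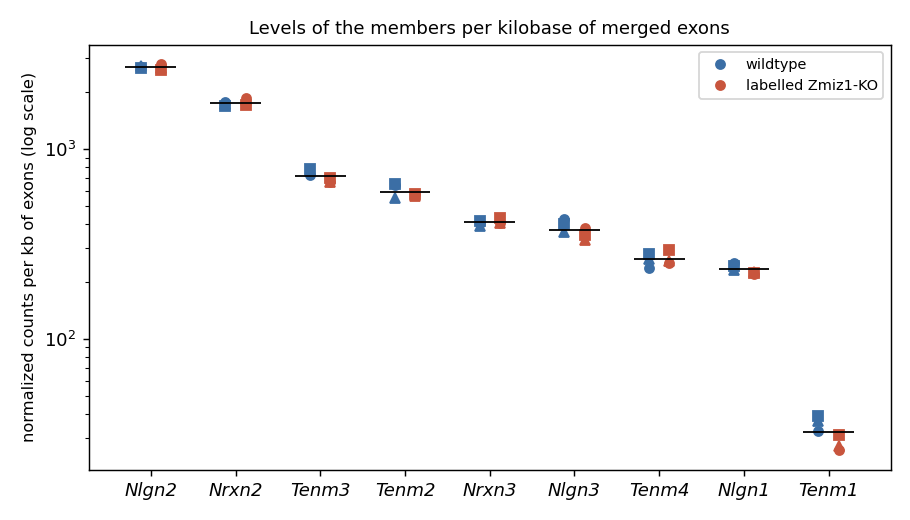
Normalized counts per kilobase of merged exons for the 9 genes in each of the 6 libraries, on a log axis. Symbols and colors stand for replicates and groups as in the plot of values per library, and black lines for the mean over 6 libraries. The highest mean is 2695 for Nlgn2 and the lowest 32.1 for Tenm1.

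The 3 tested genes nearest to Tenm3 were found by the Euclidean distance between log2 values, centred on each gene's mean, over the 6 libraries. They were Zfp292 at 0.0317, Uhrf1bp1 at 0.0414 and Apc at 0.0417, where Tenm3 itself lay 0.209 from a flat line. Zfp292 had 1357, 1425 and 1389 normalized counts in wildtype against 1215, 1289 and 1225 under the label Zmiz1-KO. In all 3 genes, as in Tenm3, replicate 2 labelled Zmiz1-KO was the highest of its group, and none was called by limma. By its distance of 0.159, Nlgn1 was the nearest of the other 8 members, and Nrxn2 the farthest at 0.32.

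Genes that encode binding partners and other synaptic adhesion proteins, called partner genes here, were read from the same fit. All 54 in 5 lists were tested. By limma 1 of the 54 was called, Ptprd, and it was lower, beside 0.247% of all tested genes called lower. At an unadjusted p under 0.05, 12 were lower and 2 higher, beside 5.84% and 5.13% of all tested genes. In 9 of the 54 the libraries labelled Zmiz1-KO lay below all wildtype values, and in 2 above them, beside 8.16% and 8.1%. The log2 fold change was negative in 35, or 64.8%, against 50.1% of all tested genes, and the median over the 54 was -0.03.

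Among the 15 neurexin ligands and modulators, none was called by limma or limma-voom, and 2 were lower and 2 higher at an unadjusted p under 0.05. C1ql2, which encodes a secreted C1q-like protein, had 36.9, 70.9 and 61.4 normalized counts in wildtype against 90.6, 72.2 and 70.4 under the label Zmiz1-KO. Wildtype replicate 1 was lowest and the groups overlapped, with 0.50 as log2 fold change (adjusted p = 0.490, limma). Nxph2, for a neurexophilin, had 208, 136 and 158 normalized counts against 228, 203 and 215, with 0.39 as log2 fold change (adjusted p = 0.349, limma). Cbln2, for a cerebellin that links neurexins to receptors across the cleft, was singled out after its values were seen. It had 946, 816 and 856 normalized counts in wildtype against 667, 756 and 685 under the label Zmiz1-KO, which were all lower. Its log2 fold change was -0.31 (limma adjusted p = 0.114), and it was called by limma without replicate 2 labelled Zmiz1-KO. Nxph4, for another neurexophilin, likewise singled out after its values were seen, had 202, 257 and 277 normalized counts against 306, 297 and 310.3, all higher. Its log2 fold change was 0.32 (limma adjusted p = 0.331).

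Of the 9 neuroligin regulators and intracellular partners, none was called by limma or limma-voom, and 3 were lower at an unadjusted p under 0.05. Mdga1, for a membrane protein that binds neuroligins and blocks their contact with neurexins, had 4555, 4980.2 and 4775 normalized counts in wildtype. In the libraries labelled Zmiz1-KO it had 4357, 3841 and 4649, and replicate 3 of these lay above wildtype replicate 1. Its log2 fold change was -0.16 (limma adjusted p = 0.378). Magi2, for a postsynaptic scaffold, had 2854, 3042 and 2951 normalized counts against 2741, 2718 and 2707, all lower, with -0.12 as log2 fold change (adjusted p = 0.336, limma).

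The 6 teneurin receptors and their coligands had negative log2 fold changes in 5 genes, with a median of -0.10. None was called by limma or limma-voom, and 2 were lower at an unadjusted p under 0.05. Adgrl2, a latrophilin gene, had 6372, 5494 and 5737 normalized counts in wildtype against 5402, 5351 and 4865 under the label Zmiz1-KO. Flrt2, for a ligand shared by latrophilins and Unc5 receptors, had 2849, 2681 and 2729.7 against 2482, 2590.0 and 2377. In both genes every library labelled Zmiz1-KO was below wildtype. The log2 fold changes were -0.17 for Adgrl2 and -0.15 for Flrt2 (limma adjusted p = 0.271 and 0.240).

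Among the 18 genes listed as LAR-type phosphatases and postsynaptic adhesion proteins, not all of them ligands of these phosphatases, 13 had a negative log2 fold change and 1 was called. Ptprd, the presynaptic phosphatase that binds Slitrk and Il1rapl1 proteins, had 8600.3, 7683 and 7871 normalized counts in wildtype against 6740.1, 6901 and 6759 under the label Zmiz1-KO. All 3 libraries of that label were lower, and the log2 fold change was -0.24 (standard error 0.044, 95% interval -0.33 to -0.15, limma adjusted p = 0.0213). The call did not hold without wildtype replicate 1 (-0.19, adjusted p = 0.0775), nor without replicate 1 (-0.24, adjusted p = 0.126) or replicate 3 (-0.24, adjusted p = 0.172) labelled Zmiz1-KO. It did not hold without robust estimation either (-0.24, adjusted p = 0.0867), and over all alternatives the adjusted p of Ptprd ran from 0.00548 to 0.172. Il1rapl1, which encodes a ligand of Ptprd, had 75.3, 66.0 and 96.6 normalized counts in wildtype against 63.7, 74.5 and 45.7 under the label Zmiz1-KO. Its groups overlapped at this low level, and the log2 fold change of -0.38 had a wide 95% interval of -0.87 to 0.11 (limma adjusted p = 0.593).

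Of the 6 SynCAM and nectin adhesion genes, none was called by limma or limma-voom, 5 had a negative log2 fold change and 2 were lower at an unadjusted p under 0.05. Cadm2 had 9751, 8178 and 8984 normalized counts in wildtype against 7692, 8462 and 7542 under the label Zmiz1-KO. Nectin3 had 1377, 1169.5 and 1412 against 1087, 1189 and 1218. Both overlapped between the groups, with log2 fold changes of -0.18 (limma adjusted p = 0.346 for Cadm2 and 0.376 for Nectin3).

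**Figure D3:**
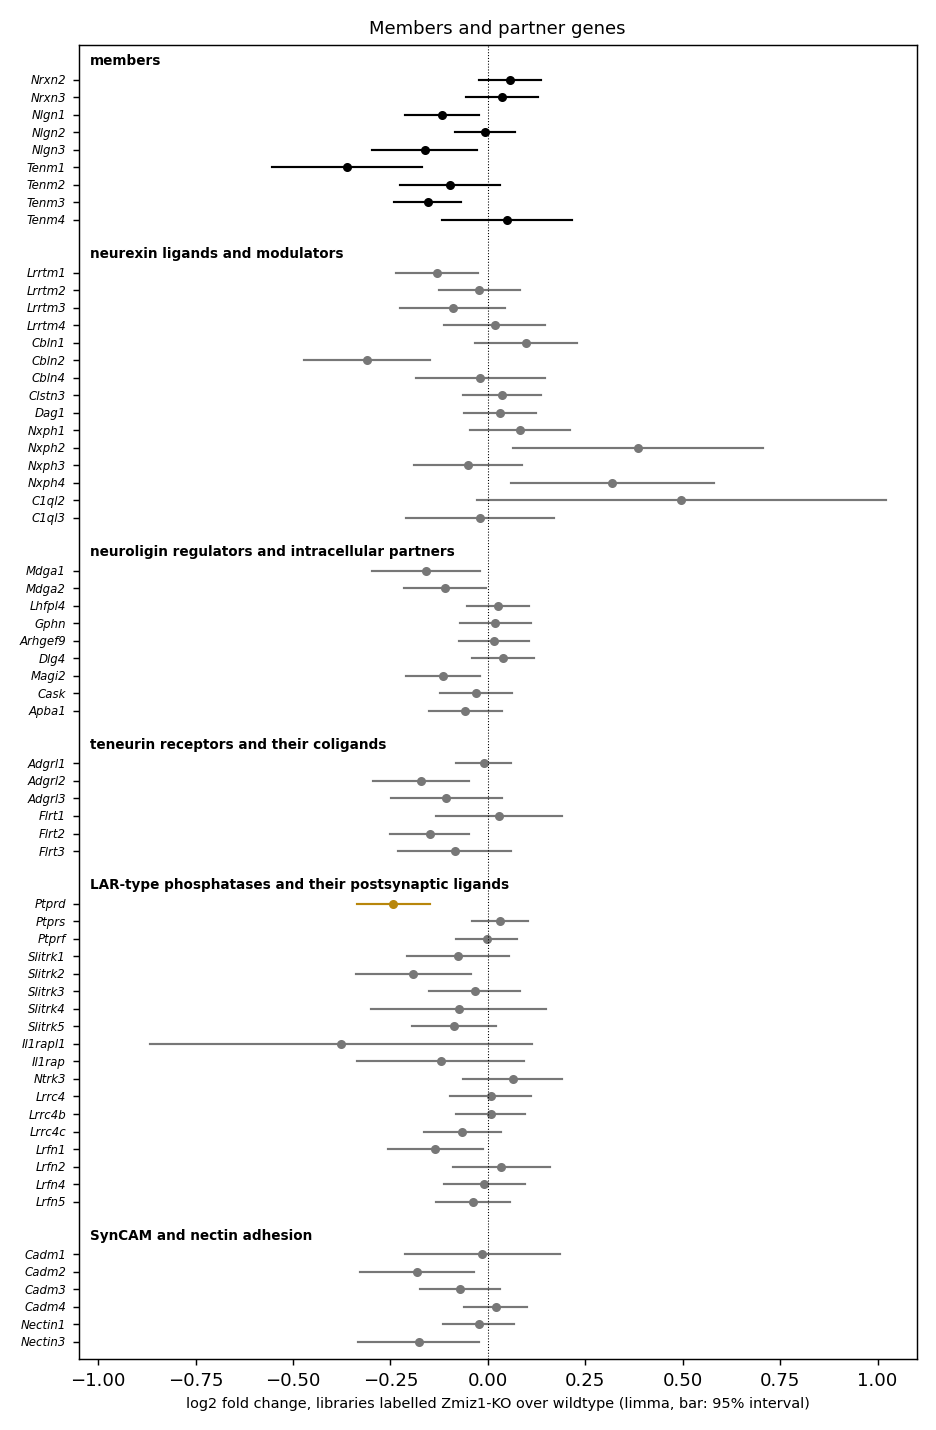
Log2 fold changes of the 9 genes and of the 54 partner genes, libraries labelled Zmiz1-KO over wildtype, from limma. Points are estimates and bars 95% intervals, black for the 9 genes, gray for partner genes that were not called and gold for Ptprd, the 1 called gene, at -0.24.

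In bulk tissue, fewer cells of a type and less RNA per cell cannot be told apart, so markers of several cell types are given beside these genes. Of the markers of the oligodendrocyte lineage, 6 of 6 had a negative log2 fold change, and 1, Olig1, was called, with a change of -0.32 (limma adjusted p = 0.00173). Their summed normalized counts were 15051, 17154 and 15604 in wildtype against 14055, 14057 and 13423 under the label Zmiz1-KO, with Olig1 the most abundant. At an unadjusted limma p under 0.05, 4 of these 6 markers were lower, beside 5.84% of all tested genes. Of the 6 astrocyte markers 4 had a negative and 2 a positive log2 fold change (Gfap at 0.05, above wildtype in 3 of 3 libraries, and Gja1 at 0.08), and 1 was called, Aqp4, at -0.29 (limma adjusted p = 0.00499), but not without replicate 1 or replicate 3 labelled Zmiz1-KO (adjusted p = 0.0511 and 0.0818, in a range of 0.00149 to 0.0818 over the alternatives). Their sums, led by Slc1a3, overlapped, at 35921, 36496 and 34785 in wildtype against 34404, 34949 and 32946. Of the 6 astrocyte markers, 3 were lower at an unadjusted limma p under 0.05.

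Thalamic markers summed to 3201, 3325 and 3218 normalized counts in wildtype against 3070.4, 3185 and 2992 under the label Zmiz1-KO, led by Slc17a6. Of the 5 markers, 2 had a negative and 3 a positive log2 fold change, with a median of 0.013. None was called by limma or limma-voom and none had an unadjusted p under 0.05. The 6 striatal markers all had positive log2 fold changes, with sums of 9224, 11995 and 12656 against 13910.2, 14474 and 12993, led by Ppp1r1b. None was called by limma or limma-voom, and 2 had an unadjusted p under 0.05. The sums of the 5 markers of meningeal fibroblasts, led by Igf2, were likewise above wildtype, at 14516, 16725 and 17595 against 19599.9, 21235 and 19241. All 5 log2 fold changes were positive. In 4 of the 5 every library labelled Zmiz1-KO lay above wildtype, and in the other the groups overlapped. Among the 5 markers Col1a2 was called, at 0.32 (limma adjusted p = 0.00464), though not without replicate 3 labelled Zmiz1-KO (adjusted p = 0.0688, in a range of 0.000957 to 0.0688). At an unadjusted limma p under 0.05, 4 of the 5 were higher, beside 5.13% of all tested genes.

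Sums for the other lists overlapped between the groups. Their log2 fold changes were negative in 6 of 7 markers of cortical projection neurons (with Slc17a7 at 0 after rounding), 4 of 5 general neuron, 4 of 5 microglial, 3 of 5 endothelial and 4 of 4 choroid plexus markers, and no marker of these lists was called by limma or limma-voom. At an unadjusted p under 0.05, 2 markers of cortical projection neurons were lower and 1 higher, 1 general neuron and 1 microglial marker were lower, and 1 endothelial marker was lower and 1 higher. The 7 markers of cortical projection neurons, led by Slc17a7, ran from 41763 to 47929 in wildtype and from 41141 to 43587 in the libraries labelled Zmiz1-KO. The 5 general neuron markers, led by Tubb3, ran from 165359 to 178745 and from 165529 to 168930. For the 5 microglial markers, led by Csf1r, the sums were 3226 to 3474 and 3087 to 3259.5, and for the 5 endothelial markers, led by Cldn5, 6993 to 7380.1 and 6907 to 7354. The 4 choroid plexus markers, led by Ttr, were low at 241 in wildtype replicate 1 and at 286 in replicate 2 labelled Zmiz1-KO, and between 3129 and 8254 in the other libraries. Every marker had a value above 0 in at least 1 library. The part of these cell types and of neighbouring tissue in the values of Nlgn1, Tenm1, Tenm3 and Ptprd was not tested.

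Most of the 9 genes are long, a property that the choice of members did not use. By GENCODE gene models on GRCm38, 6 of the 9 span over 500 kb (Nrxn3, Nlgn1, Tenm1, Tenm2, Tenm3 and Tenm4), as do 221 of the 15584 tested genes with a model. Over these 221 genes the median log2 fold change was -0.04, 63.8% were negative, and 1 was called lower and 1 higher. Over the 3899 tested genes of up to 10 kb the median was 0.02 and 40.9% were negative, and the groups of length between them lay in order, at 46.0, 57.5 and 59.1% negative. Of the partner genes, 9 span over 500 kb, among them Ptprd at 2270.7 kb. The part of length in the values of Nlgn1, Tenm1 and Tenm3 was not tested.

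Overlap with other annotated genes was small outside Nlgn3. Nlgn1 shares 9.16% of its exon bases with the antisense A830092H15Rik, Nrxn2 4.94% with Slc22a12, Tenm4 4.70% with C230038L03Rik, Nrxn3 3.48% with Gm37980 and Tenm3 1.11% with Gm19744. Nlgn2 and Tenm2 share none. The library kit does not mark strand, so reads from such stretches cannot be assigned by strand.

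Promoter sequences from RefSeq (build GRCm38.p6) matched 7 of the 9 genes with 11 windows, and Nrxn2 and Nlgn3 had no entry. Each window holds the 250 bases before an annotated start, and 5 motifs were searched on both strands. The motifs were the GC box GGGCGG (in 32.7% of all 32851 windows), the TATA box TATAAA (12.4%), the CRE TGACGTCA (1.55%), the AP-1 site TGANTCA (6.75%) and the RBPJ site TGGGAA (21.6%). Matches describe letters only, and whether any factor binds there was not tested. The sequences printed are those of Tenm1 and Tenm3, whose groups were apart, and of Nlgn2, whose means were nearly equal, with matches in capitals.
Nlgn2: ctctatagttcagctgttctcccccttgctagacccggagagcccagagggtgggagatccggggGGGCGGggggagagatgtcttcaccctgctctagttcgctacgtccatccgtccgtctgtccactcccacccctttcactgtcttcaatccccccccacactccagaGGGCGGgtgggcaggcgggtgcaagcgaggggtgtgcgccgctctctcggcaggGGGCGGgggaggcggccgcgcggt
Tenm1: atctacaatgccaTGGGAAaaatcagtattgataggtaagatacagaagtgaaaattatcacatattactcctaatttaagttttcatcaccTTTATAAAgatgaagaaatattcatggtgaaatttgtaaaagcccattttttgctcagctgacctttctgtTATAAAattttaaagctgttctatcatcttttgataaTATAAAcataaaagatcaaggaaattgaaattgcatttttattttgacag
Tenm3: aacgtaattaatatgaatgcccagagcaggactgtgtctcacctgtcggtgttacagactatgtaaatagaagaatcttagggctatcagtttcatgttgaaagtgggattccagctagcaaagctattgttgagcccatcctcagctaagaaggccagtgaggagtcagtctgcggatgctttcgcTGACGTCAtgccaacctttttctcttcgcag

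The Nlgn2 sequence is chr11:69837785-69838034 on the minus strand, directly before the start of the gene in GENCODE. It is 67.6% G and C, against a median of 52.4% over all windows, and holds 3 GC boxes. The Tenm1 sequence is chrX:43274785-43275034 on the minus strand, inside the gene's span, which has 5 annotated starts. It is 27.2% G and C and holds 4 matches to the TATA box, of which a pair overlap, and 1 RBPJ match. Its last 2 bases already belong to an annotated exon, as the GENCODE start lies 2 bases before that of RefSeq, and the nearest annotated start of an inner exon is 49544 bases away. The Tenm3 sequence is chr8:48674723-48674940 on the minus strand, the first 218 bases of a window inside the gene's span. The other 32 bases belong to an annotated exon that other transcripts use as an inner exon, and are not shown. The printed part thus lies in an intron of those transcripts. It holds 1 CRE, and no other window of the 9 genes holds that motif.

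For Nlgn1, a window at chr3:26331910-26332159 lies entirely within an annotated exon of the gene, and the other, chr3:26153987-26154236, precedes a RefSeq start that is 679 bases from the nearest in GENCODE. Neither holds any of the motifs, which says only that these letters are not in those windows. In all, 6 of the 11 windows held at least 1 match. The table sums all starts of a gene, so the values of Tenm1, Tenm3 and Nlgn1 cannot be assigned to any of these windows.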

How the data were processed

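The authors extracted total RNA from P7 cortex, prepared libraries with a kit that does not mark strand, used STAR for alignment (build mm10) and DESeq2 to normalize counts per gene. The deposited table holds normalized signal values, called normalized counts here. Tool versions and the gene annotation are not given in the sources used here. Low values fell near multiples of a step of 1.83 to 2.11 and high values did not, so whole reads were not recovered, and the count models of DESeq2 and edgeR were not run. Limma-voom, also made for counts, was applied to the normalized values as an alternative only.

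Values were compared as log2(value + 1), a scale that understates changes of low genes, by limma 3.58.1 in R 4.3.3, with an intensity trend and robust estimation, without covariates. Two-sided p values were adjusted after Benjamini and Hochberg across the 15800 genes with at least 10 normalized counts in at least 3 libraries, and a gene was called at an adjusted p at or under 0.05. The procedure was tested on simulated data. Levels were divided by the merged exon length, or the longest transcript, of GENCODE models. Replicate numbers name libraries, and their pairing is treated only with the alternatives.

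The named genes are the members, Zmiz1, Xist and Ddx3y, each partner list's called genes and the 2 with the largest absolute log2 fold change, each marker list's most abundant and called genes, and the 3 genes nearest to Tenm3. Cbln2, Nxph4, Gfap, Gja1, Slc32a1, Sst, Gad2 and Lhx6 were named only once their values had been seen. The members and lists were chosen with earlier results of these data known. The alternatives were a pseudocount of 0.1 or 10, no filter, a stricter filter of 10 or more in every library, median-ratio or upper-quartile scaling, limma-voom, limma without robust estimation, an adjusted p of 0.1, the replicate number as a block, a covariate for Xist, and each library left out in turn. Plots were made in Python 3.11.15 with matplotlib 3.10.9.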

Additional observations from a re-analysis of the deposited data

How the results depend on the processing

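The count of called members was 0 by limma and stayed 0 by limma-voom, under both scalings, both other pseudocounts, both filters, the Xist covariate, limma without robust estimation and an adjusted p of 0.1. Each library left out in turn gave 0 to 1 (Tenm1, without replicate 2 labelled Zmiz1-KO). A replicate block raised it to 2, Tenm1 (adjusted p = 0.0383) and Tenm3 (adjusted p = 0.0393). Over the alternatives the adjusted p ran from 0.0347 to 0.447 for Tenm1 and from 0.0393 to 0.524 for Tenm3. The same block gave 168 called genes over all tested genes and 1 partner gene, and among GABAergic markers it called Gad1, Gad2, Lhx6 and Sst. Libraries that share a replicate number did not deviate together (correlations across genes of -0.00509, -0.113 and -0.00627). No wildtype library correlated best with the library of its own number labelled Zmiz1-KO, so the numbers were not taken to pair animals.

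Of all tested genes, 65 were called, against 17 without robust estimation, 106 at an adjusted p of 0.1 and 12 to 152 with each library left out. The partner count of 1 was 0 without robust estimation and 0 to 2 with each library left out. Chosen after seeing the data, the count of members whose groups were apart with lower values labelled Zmiz1-KO, 3, ran from 3 to 5 with each library left out. Fewer libraries make such gaps easier to reach. Signs turned only for Nlgn2 (0.0130 and 0.0011 without replicates 2 and 3 labelled Zmiz1-KO, in a range of -0.0374 to 0.0130) and Tenm4 (-0.0171 without wildtype replicate 1 and -0.0182 without replicate 2 labelled Zmiz1-KO, in a range of -0.0182 to 0.1048). Each of the other 7 members kept its sign in 17 of 17 alternatives. Why these counts and signs moved was not tested. With 3 libraries per group at this depth, the standard errors of the members' log2 fold changes, 0.0367 to 0.0912, limit which differences could be called.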
